A study of Bos taurus with 4 samples.

Results

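The genes described here encode nucleosome remodelling machines, Polycomb and heterochromatin proteins, readers of histone marks and histone chaperones. They were taken from the deposited table of bovine (Bos taurus) embryo RNA by gene symbol alone: names starting with SMARC, ARID, CBX, PCGF, INO80, ACTL6 or RUVBL, names of CHD, BRD, PHF or ING followed by a digit, and a short list of further subunits such as EED, SUZ12, RNF2, MTA2 and DAXX. The rule uses no measured value, although it was written with earlier results of these data known. The rule found 80 genes, each with 1 row, among 14002 genes with a symbol. A further 25 symbols of the RefSeq gene table fit the rule and are not analysed here, among them SIN3A, ATRX, HIRA and SMARCC1.

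The study injected zygotes with small interfering RNAs (siRNAs) and sequenced polyadenylated RNA from 8/16-cell embryos on day 3 after insemination, near the time when the bovine embryo starts to transcribe its own genome. The group NC received negative control siRNAs and the group KDM5_KD received siRNAs against KDM5A, KDM5B and KDM5C, with 2 libraries each. KDM5 enzymes take methyl groups off lysine 4 of histone H3. The treatment entry of KDM5_KD replicate 2 names KDM6 genes instead, and the library was kept with the group in its title. No genotype, strain or number of embryos per library is given in the labels, and nothing there says that replicates came from separate cultures, so p-values measure the spread between these libraries, which may be technical.

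Remodelling enzymes spend ATP to slide, evict or exchange nucleosomes, and each works in a complex with scaffold and targeting subunits. Reader domains dock such complexes on marked histones: bromodomains on acetylated lysine, chromodomains on methylated lysine 9 or 27 of histone H3, and many PHD fingers on lysine 4 of H3, the residue that KDM5 enzymes act on. In early embryos these proteins are supplied by the oocyte at first and later by the embryo's own transcripts.

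The values are FPKM, fragments scaled to transcript length and to library size, so they can be compared between genes. The FPKM of the 4 libraries summed to between 283347 and 322267, and NC replicate 2 was the deepest library as judged from the steps between low values, with the others at 0.680 to 0.802 of its depth. KDM5A had 28.4 and 27.1 FPKM in NC and 10.5 and 10.1 FPKM in KDM5_KD, and KDM5C had 28.1 and 40.6 against 15.1 and 17.8 FPKM. KDM5A fell by 1.35 on the log2 scale (SE 0.142, limma adjusted p of 0.0333), while the KDM5C difference of -0.999 had a limma adjusted p of 0.123, and KDM5B is not analysed here. Of 18 oocyte and early embryo markers 13 had a row, all 14 of their rows were at a mean of 1 FPKM or more, and their sum was 593 and 489 FPKM in NC and 702 and 760 FPKM in KDM5_KD. All 22 listed cumulus and granulosa cell markers had a row. They summed to 109 and 59.9 FPKM in NC and to 209 and 207 FPKM in KDM5_KD, with 17 of the 22 above both controls in the knockdown and none below. VIM made up 35.6 and 8.09 FPKM of this sum in NC and 84.6 and 98.1 FPKM in KDM5_KD. COL1A1 made up 28.4 and 23.9 against 47.7 and 35.8 FPKM. The 17 include FSHR and PTX3, both at 0.353 FPKM or less in every library. Of the genes that define this cell type, FSHR, LHCGR and CYP19A1 were at most at 0.0602 FPKM in every library. Others were expressed and higher in the knockdown: INHA was at 1.195 and 0.489 FPKM in NC and 3.67 and 2.91 FPKM in KDM5_KD, CYP11A1 at 8.41 and 3.79 against 12.5 and 17.2 FPKM, and FOXL2 at 0.660 and 0.491 against 1.07 and 1.25 FPKM. AMH, at 2.77 and 1.12 against 1.28 and 0.957 FPKM, overlapped between groups. So did TNFAIP6, at 1.21 and 1.31 against 1.097 and 1.26 FPKM, and COL3A1, at 2.18 and 0.261 against 4.03 and 2.17 FPKM. The 8 sperm markers with a row summed to between 1.39 and 1.85 FPKM, and the 6 blood markers to 34.4 and 8.17 FPKM in NC and 39.9 and 35.5 FPKM in KDM5_KD. HBA made up 31.5 and 5.08 FPKM of this in NC and 38.3 and 33.1 FPKM in KDM5_KD. Of the white blood cell markers PTPRC was at most at 0.0940 FPKM, while CD68 was at 2.63 and 2.43 FPKM in NC and 1.54 and 2.16 FPKM in KDM5_KD. The part of these cell types in the differences below was not tested. In whole embryos fewer cells of a type and less RNA per cell cannot be told apart.

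Of the 80, 78 had a mean of at least 1 FPKM over all libraries, the limit for testing, and 74 were at 1 FPKM or more in every library. Their median level was 22.4 FPKM, against 10.48 FPKM for all 8970 transcripts tested. Together the 80 genes made up 0.947% and 1.03% of all FPKM in NC, and 0.856% and 0.947% in KDM5_KD. In KDM5_KD replicate 1, 1 microRNA row held 6.45% of the sum, while in the other libraries the largest microRNA row held at most 0.137%. The part of this row in the lower share of the 80 genes was not tested. BRD2, a bromodomain protein that binds acetylated histones, was the most abundant at 174 and 223 FPKM in NC and 195 and 196 FPKM in KDM5_KD. At the other end, ACTL6B, the actin-like subunit known from neurons, was listed at 0 in 3 libraries and at 0.110 FPKM in KDM5_KD replicate 2.

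**Figure D1:**
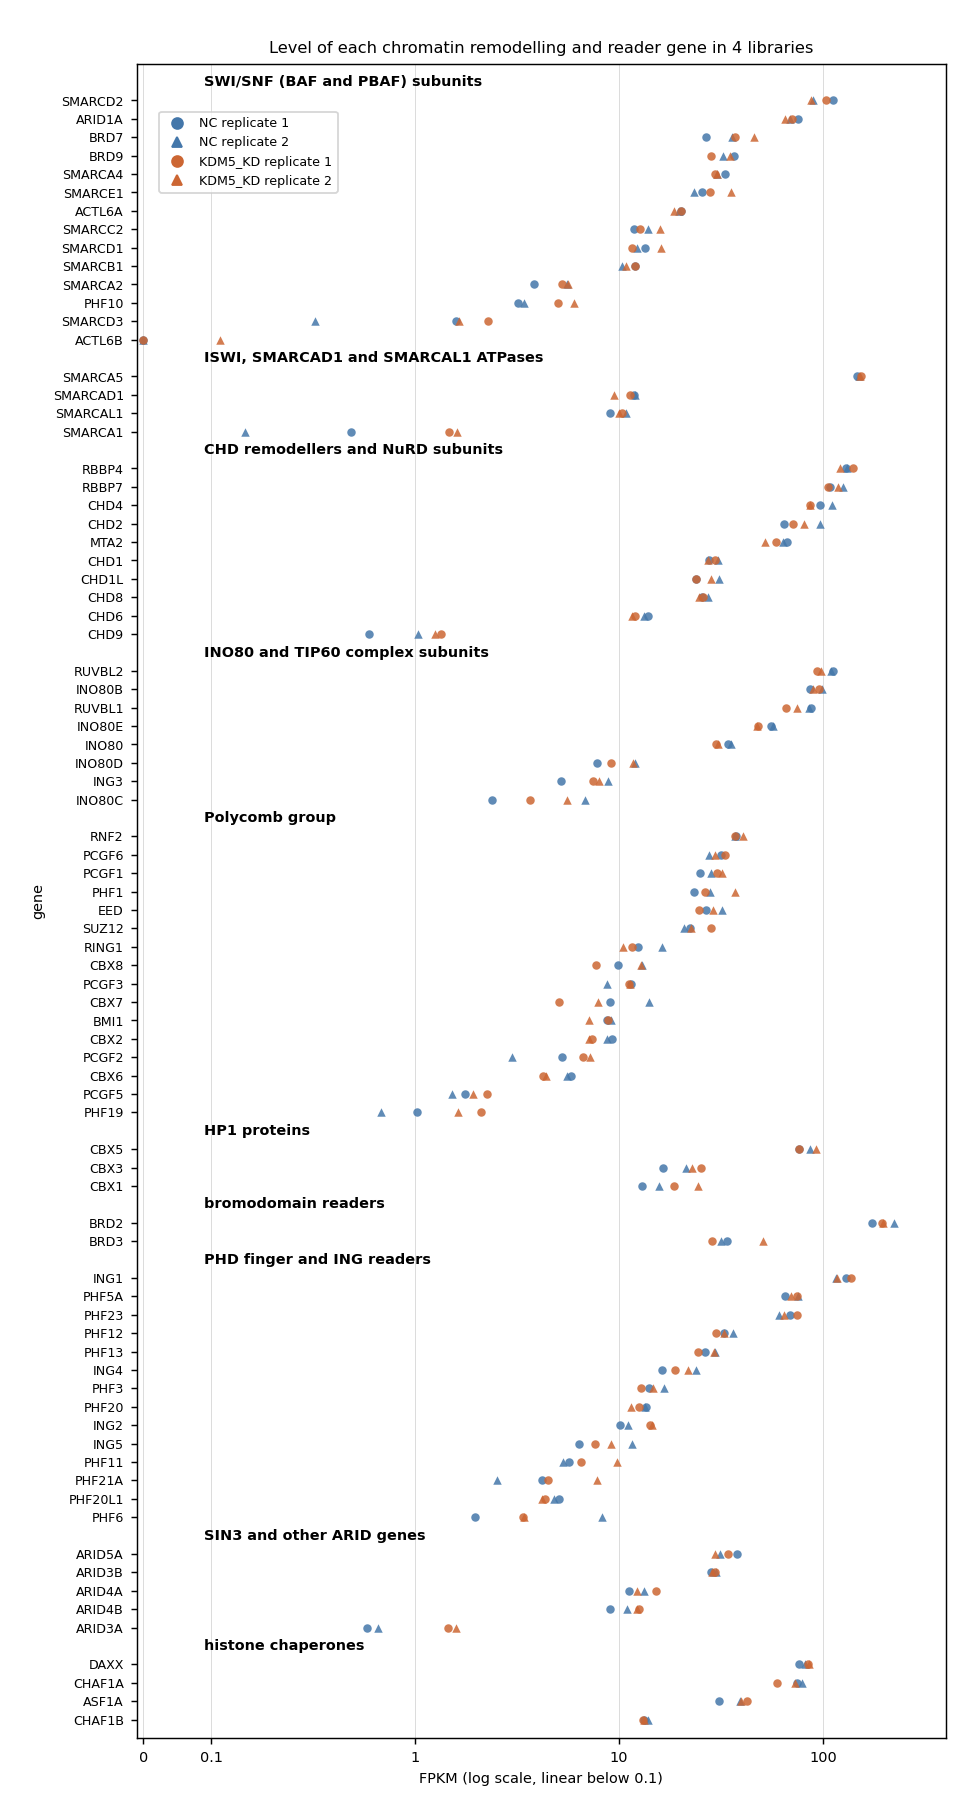
FPKM (log axis, linear below 0.1) of all 80 genes in each library, grouped by role; circles are replicate 1, triangles replicate 2, blue is NC and orange KDM5_KD. Levels span from ACTL6B at 0 to BRD2 at a mean of 197 FPKM, and for most genes the 4 points lie close together compared with the distance between genes.

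Several families were carried by 1 paralog. SMARCA5, the ISWI remodelling ATPase, was at 147, 151, 153 and 152 FPKM in NC replicates 1 and 2 and KDM5_KD replicates 1 and 2, and made up between 98.96% and 99.9% of the summed FPKM of SMARCA5 and its paralog SMARCA1. Of the paired SWI/SNF ATPases, SMARCA4 (BRG1) held 84.4% to 89.7% and SMARCA2 (BRM) the rest. SMARCD2 accounted for 83.2% to 88.2% of the 3 SMARCD subunits. This order held in each of the 4 libraries. Among ING readers ING1 held 67.7% to 77.3%, and CBX5 (HP1 alpha) held 63.5% to 72.1% of the 3 HP1 genes. RNF2 (RING1B), the catalytic E3 ligase of Polycomb repressive complex 1, exceeded RING1 in every library with 69.4% to 79.6% of their sum. The PCGF subunits, which decide the type of that complex, were led by PCGF6 and PCGF1 at 33.2% to 37.7% and 29.8% to 36.1%. These last shares overlapped, and PCGF1 was above PCGF6 in NC replicate 2 and KDM5_KD replicate 2. The histone-binding proteins RBBP4 and RBBP7 were nearly equal, with RBBP4 at 50.5% to 57.1%.

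In the comparison of KDM5_KD with NC, no member passed a limma adjusted p of 0.05 in either direction. Over all transcripts 0.279% passed, or 25 of 8970. Without adjustment 6 members were higher and 2 lower at a limma p under 0.05, which is 10.3% of the 78 against 17.5% of all transcripts. Of the 6, 2 had an NC mean under 1 FPKM and entered the test through their knockdown values. Among the 74 members with an NC mean of at least 1 FPKM, 4 were higher and 2 lower at this limit (8.11%, against 15.7% of all such transcripts). No member differed by 2-fold on the log2(FPKM + 1) scale, on which 4.52% of all transcripts reached 2-fold upwards and 0.301% reached it downwards. The 95% interval of the difference lay wholly within 2-fold either way for 67 of the 78 (85.9%), against 77.6% of all transcripts. A member's difference was smaller than the gap between replicates of at least 1 group for 53 of the 78 (67.9%, against 62.7% of all transcripts).

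The members' median log2 fold change was 0.02 with 41 higher and 37 lower, while the median of all transcripts was 0.09 with 62.6% higher. Both knockdown values lay above both control values for 20 members (25.6%), where 35.1% of all transcripts did so, and below both for 17 members (21.8%), against 15.6% of all transcripts. The summed cumulus and granulosa markers were higher in the same knockdown libraries, as given above. With the libraries scaled by their median ratio these counts were 11 above and 27 below, and after quantile normalization 10 and 22. The same scalings moved all transcripts from 3148 above and 1402 below to 2321 and 2281, and to 1854 and 2541. Of the 17 members below, 16 also lay below under both scalings, and of the 20 above, 8 also lay above. Those shares, 94.1% and 40.0%, were 97.3% and 52.6% over all transcripts. Quantile normalization moved the median of all transcripts from 0.09 to -0.05 and median-ratio scaling to -0.01, and the members' median to -0.07 and -0.09.

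**Figure D2:**
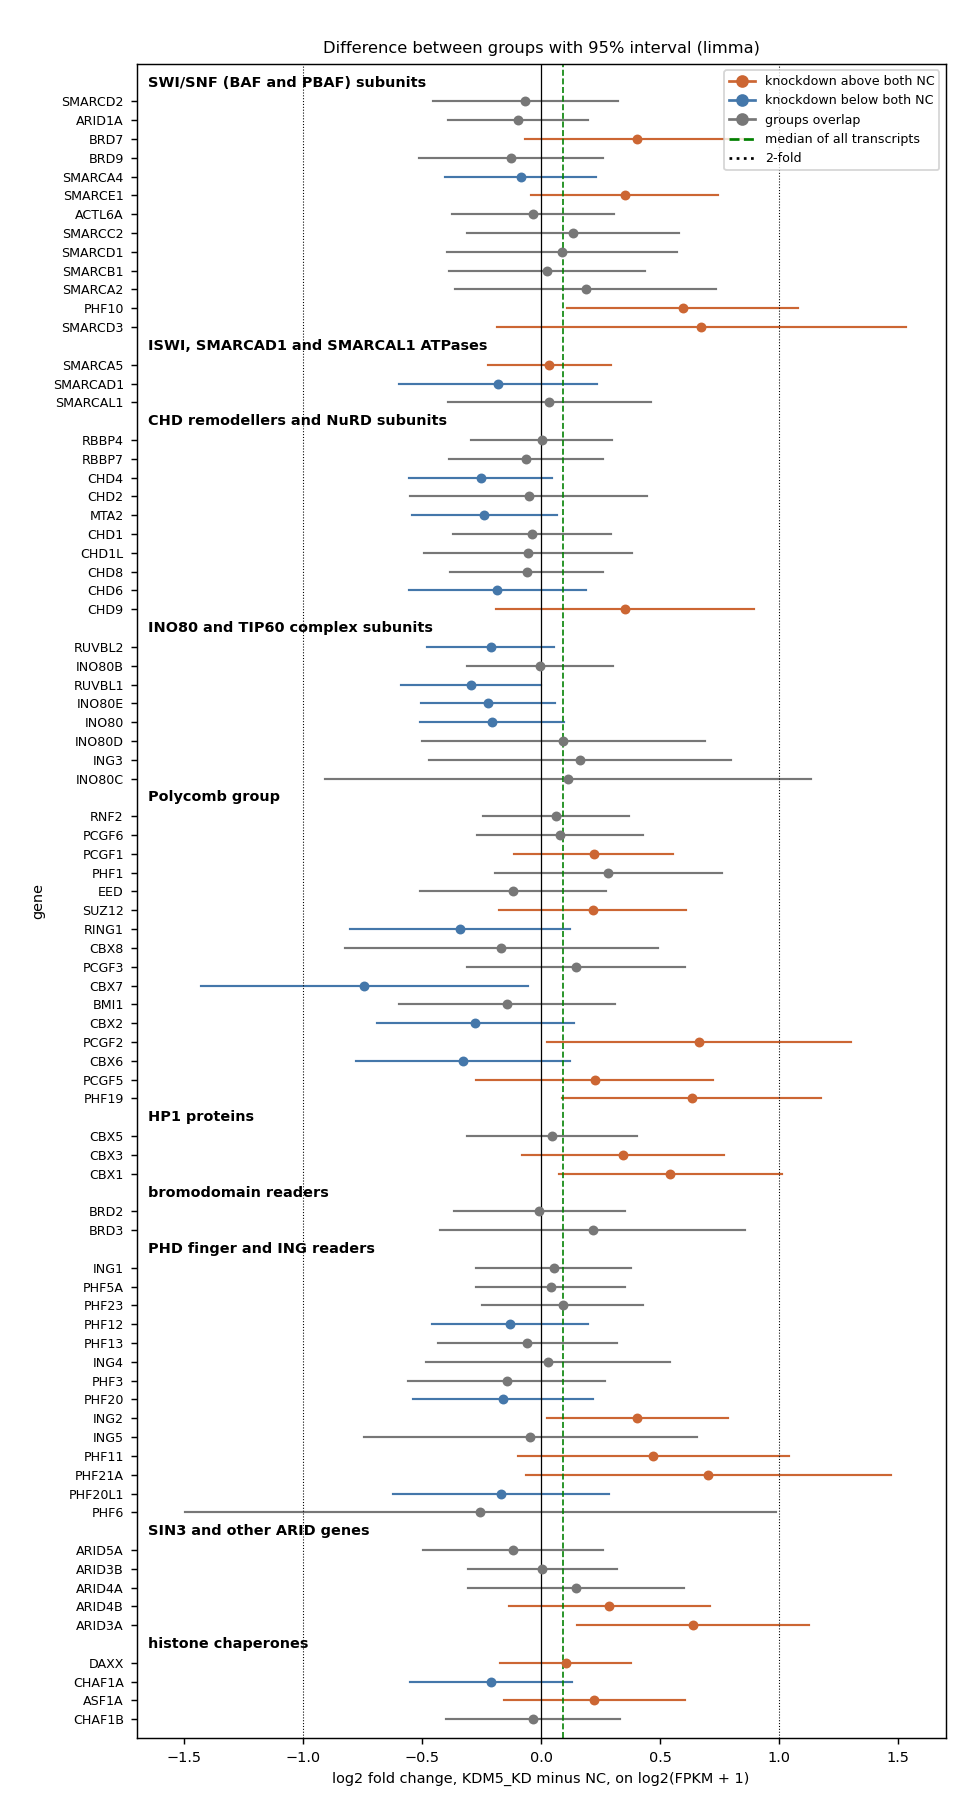
Log2 fold change of the 78 genes tested (KDM5_KD minus NC on log2(FPKM + 1), points) with 95% limma intervals (lines), grouped by role. Orange genes lay above both controls in both knockdown libraries (20), blue genes below (17) and grey genes overlapped (41); no point reaches the dotted 2-fold lines.

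With the tested transcripts divided by level into 4 bins of equal size, all 5 members of the lowest bin (median 1.36 FPKM) were above both controls, where 48.0% of all transcripts of that bin were. Their median difference was 0.63, against 0.25 for all transcripts of the bin. Of these 5, CHD9, PHF19, ARID3A and SMARCD3 had an NC mean under 1 FPKM and entered the test through their knockdown values, so a higher level was built into their inclusion. The median of these 4 was 0.64 and all lay above both controls. The 388 tested transcripts with an NC mean under 1 FPKM had a median of 0.69, and 86.1% of them lay above. In the highest bin, with 32 members, the median was -0.02 for the members and for all transcripts. The bins between them had medians of 0.06 (16 members) and 0.02 (25 members), against 0.16 and 0.06 for all. Among the 74 members with an NC mean of at least 1 FPKM, 37 were higher and 37 lower, 16 lay above both controls (21.6%) and 17 below (23.0%). Of all transcripts with such a mean 61.0% were higher, 32.8% lay above both controls and 16.3% below. SMARCA1 was just short of testing at a mean of 0.922 FPKM, while CHD9 at 1.05 FPKM and ARID3A at 1.07 FPKM were just inside. SMARCA1 had 0.485 and 0.146 FPKM in NC and 1.46 and 1.597 FPKM in KDM5_KD.

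**Figure D3:**
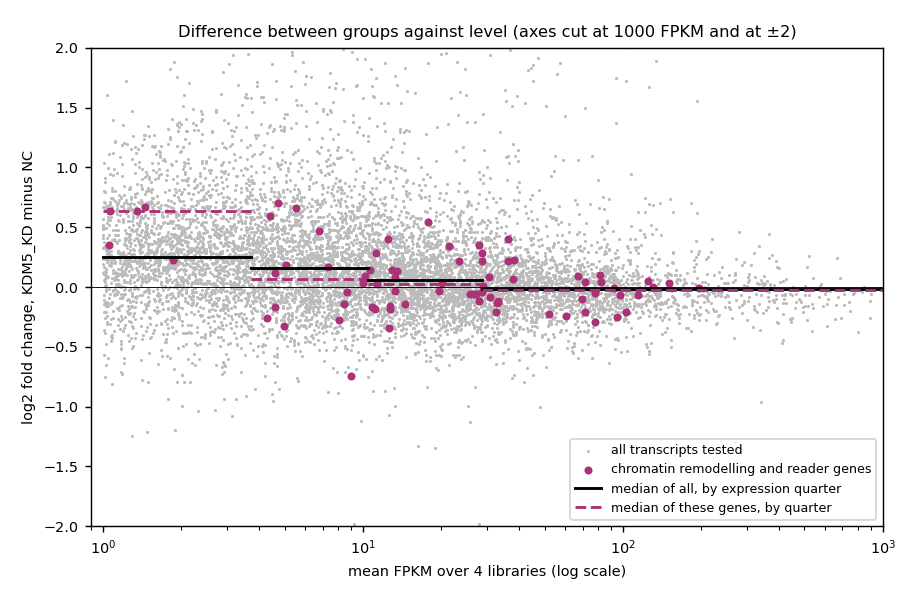
Log2 fold change (KDM5_KD minus NC) against mean FPKM (log axis) for all 8970 transcripts (grey) and the 78 members (purple), with the medians of all transcripts (solid) and of members (dashed) in each of 4 expression bins. The medians of the members and of all transcripts both fall with level. In the lowest bin the median of the 5 members, 0.63, lies above that of all transcripts, but 4 of these 5 entered the test through their knockdown values. Outside the axes fall 69 grey points.

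The SWI/SNF complexes, known as BAF and PBAF, evict and slide nucleosomes at promoters and enhancers. Of their 13 tested subunits 8 were higher and 5 lower, with a median of 0.09, equal to that of all transcripts. Above both controls lay 4 (30.8%) and below them 1 (7.69%), against 35.1% and 15.6% of all transcripts. The 4 above include SMARCD3, which entered the test through its knockdown values. SMARCA4 had 33.3 and 30.2 FPKM in NC and 29.5 and 30.1 in KDM5_KD, ARID1A (BAF-specific) 75.4 and 69.3 against 70.3 and 64.8, and SMARCB1 12.0 and 10.4 against 11.9 and 10.8. SMARCA4 was marginally lower in both knockdown libraries, and the other pair overlapped as deposited, with ARID1A below both controls under both scalings. SMARCE1, a core subunit with an HMG domain, went the other way at 25.6 and 23.3 FPKM in NC and 28.1 and 35.2 FPKM in KDM5_KD. Its difference of 0.35 (SE 0.160, limma adjusted p of 0.329) kept the groups apart under both scalings. The most abundant subunit, SMARCD2 (NM_001205462), was at 111 and 89.0 against 104 and 87.0 FPKM (limma adjusted p of 0.870). PHF10, a PHD finger subunit of PBAF, had 3.18 and 3.41 FPKM in NC and 5.003 and 6.01 FPKM in KDM5_KD. Its log2 fold change was 0.59 (SE 0.198, limma adjusted p of 0.216), and the knockdown libraries were higher under both scalings too. BRD7, the bromodomain subunit of PBAF, had 26.6 and 35.8 against 36.9 and 45.7 FPKM, while BRD9, its counterpart in the non-canonical BAF complex, had 36.5 and 32.4 against 28.2 and 35.0 FPKM. The BRD7 groups did not overlap as deposited but did under both scalings, and the BRD9 groups overlapped as deposited and after quantile normalization but lay apart, with the knockdown lower, with median-ratio scaling. SMARCD3 (NM_001078154) showed the largest difference in the group, 0.67 (SE 0.352, limma adjusted p of 0.385). This value depended on the setting, with 1.28 at a pseudocount of 0.1, 0.29 after quantile normalization and 0.19 without NC replicate 2. It was at 1.58 and 0.321 FPKM in the controls and at 2.28 and 1.65 FPKM in KDM5_KD, so 1 control library was close to the lower knockdown value.

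The other SNF2-type ATPases differed little. SMARCA5 had a log2 fold change of 0.03 with a 95% interval from -0.22 to 0.29, the narrowest of the 78, and its sign turned to -0.08 with median-ratio scaling. SMARCAL1, an annealing helicase of stalled replication forks, was at 8.99 and 10.9 against 10.3 and 10.01 FPKM. SMARCAD1, a remodeller known for restoring silent chromatin after replication, was at 11.8 and 12.0 against 11.3 and 9.47 FPKM. The last of these was lower in both knockdown libraries, by 0.18 on the log2 scale (SE 0.170, limma adjusted p of 0.632).

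CHD remodellers carry chromodomains, and CHD4 is the ATPase of the NuRD complex, which joins remodelling to histone deacetylation. Of the 10 tested genes of this group 8 were lower, with a median of -0.06 against 0.09 for all transcripts. Without NC replicate 2 this median was 0.02 and 6 of the 10 were higher. It was -0.16 without NC replicate 1, with 9 of 10 lower, -0.15 without KDM5_KD replicate 2 and -0.09 without KDM5_KD replicate 1. CHD4 (NM_001206501) had 96.4 and 111 FPKM in NC and 86.8 and 86.1 FPKM in KDM5_KD, or 83.5% of the control mean. MTA2, a NuRD scaffold subunit, had 66.9 and 63.8 against 58.6 and 52.0 FPKM, or 84.7%. Both were below both controls as deposited and under both scalings, at log2 fold changes of -0.25 (SE 0.122) and -0.24 (SE 0.124), and limma adjusted p of 0.349 and 0.384. The histone-binding subunits of the same complex overlapped between groups. RBBP4 was at 129.0 and 131.8 against 140.3 and 121.6 FPKM, with a difference of 0.00 whose interval ran from -0.30 to 0.30. CHD1, whose chromodomains bind trimethylated lysine 4 of histone H3, was at 27.7 and 30.5 against 29.4 and 27.2 FPKM. CHD6, at 13.9 and 13.3 against 12.0 and 11.6 FPKM, also lay below both controls as deposited and under both scalings. CHD9 (NM_001205650) was the only member of this group above both controls, at 0.592 and 1.03 against 1.34 and 1.25 FPKM (limma adjusted p of 0.467).

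INO80 and TIP60 are large remodelling complexes that share the paired AAA+ ATPases RUVBL1 and RUVBL2 and act on histone variant H2A.Z. Of their 8 tested genes 5 were lower, with a median of -0.11, and 4 (50%) lay below both controls, against 15.6% of all transcripts, while none lay above. These 4 are all in the highest expression bin, where 24.5% of all transcripts lay below. Without NC replicate 1 all 8 genes lay below the remaining control, with a median of -0.21. Of all transcripts 28.9% then lay below it and 49.2% above. Without NC replicate 2, 4 of the 8 genes lay above the remaining control and 4 below, with a median of -0.05. Of all transcripts 50.02% then lay above it and 26.9% below. RUVBL1 (NM_001101076) had 87.6 and 85.02 FPKM in NC and 66.2 and 74.3 FPKM in KDM5_KD, or 81.4% of the control mean. RUVBL2 (NM_001038526) had 112 and 109 against 93.8 and 97.3 FPKM, or 86.3%. The ATPase INO80 itself had 34.4 and 35.3 against 29.7 and 30.4 FPKM, and the subunit INO80E had 55.3 and 56.8 against 48.2 and 47.7 FPKM. In each of these 4 genes the replicates lay close together and apart from the other group, and they did so under both scalings. Their log2 fold changes ran from -0.30 to -0.21, with RUVBL1 at -0.30 (SE 0.120, limma adjusted p of 0.285) and RUVBL2 at -0.21 (SE 0.109, limma adjusted p of 0.381). INO80B, as abundant as RUVBL1, was at 86.2 and 99.4 against 95.2 and 89.3 FPKM. INO80D, the reader ING3 and INO80C were less abundant and overlapped between groups. INO80C (NM_001105404) was at 2.38 and 6.77 FPKM in NC and 3.66 and 5.58 FPKM in KDM5_KD, so its 0.11 difference has an interval from -0.91 to 1.13.

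**Figure D4:**
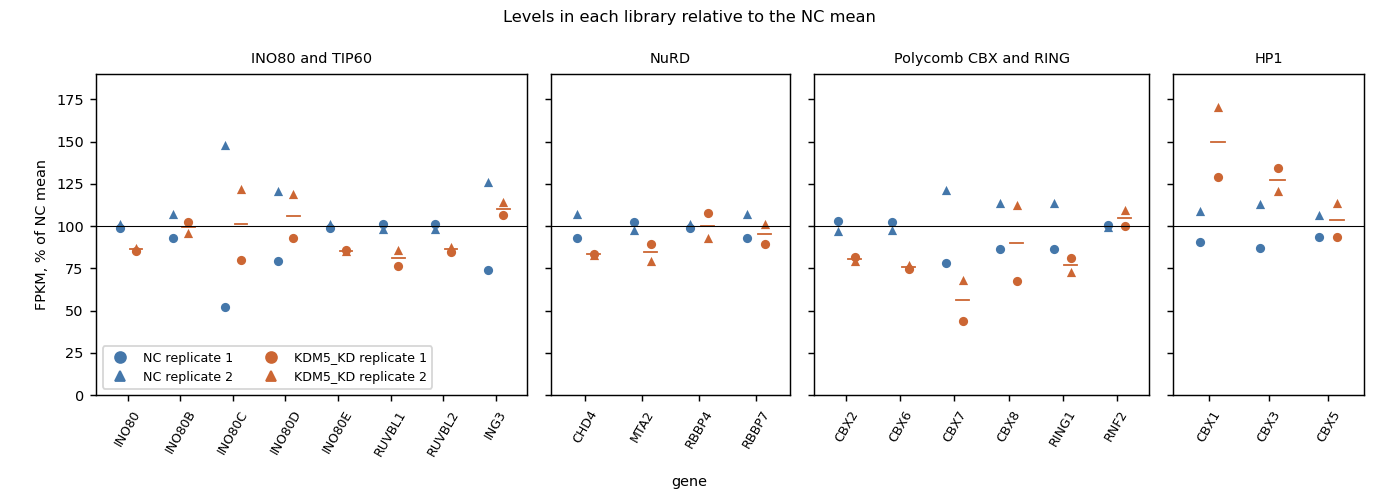
FPKM in each library as a percent of the gene's NC mean for INO80 and TIP60, NuRD, Polycomb CBX and RING, and HP1 genes; circles are replicate 1, triangles replicate 2, blue NC, orange KDM5_KD, and short bars the KDM5_KD mean. INO80, INO80E, RUVBL1, RUVBL2, CHD4 and MTA2 lie below the NC mean in both knockdown libraries, the KDM5_KD means of the Polycomb CBX genes lie below 100% and those of the HP1 genes above it.

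Polycomb proteins silence developmental genes: complex 2 methylates lysine 27 of histone H3, and complex 1, with a CBX reader in its canonical form, binds that mark and ubiquitinates histone H2A. The 16 tested Polycomb genes were divided, with 9 higher and 7 lower, a median of 0.07, 5 above both controls and 4 below. These shares are 31.25% and 25.0%, against 35.1% and 15.6% of all transcripts. The 5 above include PHF19, which entered the test through its knockdown values. All 4 of the CBX readers of this group with a row had lower means, while 62.6% of all transcripts were higher. CBX7 (NM_001192618) was at 9.06 and 14.03 FPKM in NC and 5.09 and 7.84 FPKM in KDM5_KD, 56.0% of the control mean and the lowest such percentage among the 78 members. Its log2 fold change was -0.74 (SE 0.281, limma adjusted p of 0.261), and it ranged from -1.03 to -0.45 when 1 library was left out. CBX6 had 5.82 and 5.54 against 4.24 and 4.39 FPKM, and CBX2 had 9.23 and 8.73 against 7.34 and 7.13 FPKM. These 3 lay below both controls under both scalings, whereas CBX8 (9.89 and 13.0 against 7.71 and 12.9 FPKM) overlapped and was at 0.17 without KDM5_KD replicate 1 and at 0.01 without NC replicate 2. The ligase RING1 had 12.4 and 16.2 against 11.6 and 10.4 FPKM, also below both controls under both scalings, and its paralog RNF2 (NM_001101203) had 37.3 and 36.9 against 37.0 and 40.7 FPKM, with overlap.

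Of the 6 PCGF subunits 5 (83.3%) had higher means, against 62.6% of all transcripts, BMI1 (PCGF4) being the exception. This count depends on scale: PCGF6 was at -0.03 with median-ratio scaling, and PCGF3 and PCGF5 were at -0.03 and -0.09 after quantile normalization. Without NC replicate 2 PCGF6 was at -0.01 and PCGF3 at -0.03. PCGF2 (NM_001144106), also known as MEL18, was at 5.25 and 2.99 FPKM in NC and 6.64 and 7.19 FPKM in KDM5_KD. Its difference of 0.66 (SE 0.262, limma adjusted p of 0.275) kept the groups apart under both scalings. In complex 2, EED was at 26.5 and 31.8 against 24.6 and 29.0 FPKM, and SUZ12 at 22.4 and 20.7 against 28.1 and 22.5 FPKM. EZH2, their catalytic partner, which lies outside the rule, was at 74.4 and 75.5 against 71.3 and 66.6 FPKM. The log2 fold changes of these 3 core subunits were -0.12, 0.22 and -0.12. PHF19 (NM_001192715), an accessory subunit that guides complex 2 to its targets, was at 1.02 and 0.678 against 2.11 and 1.62 FPKM (difference 0.63, SE 0.223, limma adjusted p of 0.234).

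HP1 proteins use the same kind of chromodomain to bind methylated lysine 9 of histone H3 in heterochromatin. All 3 had higher means in the knockdown, as did 62.6% of all transcripts. CBX5, however, was at -0.06 with median-ratio scaling, at -0.05 without NC replicate 1 and at -0.09 without KDM5_KD replicate 2. CBX1 (HP1 beta, NM_001206415) was at 13.0 and 15.6 FPKM in NC and 18.5 and 24.4 FPKM in KDM5_KD, a difference of 0.54 (SE 0.191, limma adjusted p of 0.234) with no overlap under either scaling. CBX3 (HP1 gamma, NM_001101198) was at 16.4 and 21.3 against 25.3 and 22.8 FPKM (0.34, SE 0.173, limma adjusted p of 0.369), and its groups overlapped under both scalings. CBX5 was at 76.0 and 86.8 against 76.0 and 92.6 FPKM. Close copies of these genes elsewhere in a genome could share reads with them, so their rows are uncertain.

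The BET proteins BRD2 and BRD3 recruit transcription factors to acetylated chromatin. BRD2 (NM_001045866) differed by -0.01 with an interval from -0.37 to 0.35. BRD3 was at 33.6 and 31.7 FPKM in the controls and at 28.6 and 50.7 FPKM in KDM5_KD, so that the higher mean came from 1 library, and without KDM5_KD replicate 2 the difference was -0.18.

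The PHD finger and ING group had 7 genes higher and 7 lower of 14 tested, a median of -0.01, and 3 on each side of the controls without overlap. That is 21.4% on each side, against 35.1% above and 15.6% below over all transcripts. Across all roles, 7 tested members are known readers of trimethylated lysine 4 of histone H3: CHD1, ING1, ING2, ING3, ING4, ING5 and PHF13. Their median difference was 0.03, 6 of the 7 overlapped between groups, and all 7 intervals lay within 2-fold. Of all transcripts 4420 of 8970 overlapped. ING2, which links this mark to the SIN3 deacetylase complex, was the one that did not overlap, at 10.1 and 11.1 against 14.2 and 14.4 FPKM (0.40, SE 0.156, limma adjusted p of 0.268). ING1 (NM_001077914), the most abundant, was at 129.2 and 115.9 against 137.8 and 117.1 FPKM. PHF21A, which in contrast binds unmethylated lysine 4 as a subunit of the LSD1 demethylase complex, had the largest positive difference of all members. It was at 4.17 and 2.51 FPKM in NC and 4.47 and 7.78 FPKM in KDM5_KD, so that KDM5_KD replicate 1 lay just above NC replicate 1 (0.70, SE 0.314, limma adjusted p of 0.320). PHF11 was at 5.66 and 5.30 against 6.48 and 9.79 FPKM (0.47, SE 0.233, limma adjusted p of 0.361). PHF6, a nucleolar and chromatin protein, had the lowest difference of the group at -0.26, but its control values of 1.97 and 8.28 FPKM lay on either side of both knockdown values, 3.36 and 3.43 FPKM.

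Among the 5 remaining ARID genes 4 (80.0%) had higher means, against 62.6% of all transcripts. ARID5A was the most abundant at 38.0 and 31.4 against 34.0 and 29.6 FPKM. ARID4B, which binds SIN3 complexes, was at 9.06 and 11.0 against 12.6 and 12.2 FPKM (0.29, SE 0.172, limma adjusted p of 0.445). ARID3A (NM_001205695), a DNA-binding factor, was at 0.579 and 0.659 FPKM in NC and 1.46 and 1.58 FPKM in KDM5_KD. It had the lowest limma adjusted p of the 78 members, 0.200, with a difference of 0.64 (SE 0.199), and it is among the genes that entered the test through their knockdown values. After quantile normalization only 2 of these 5 genes were higher, as were 3859 of all 8970 transcripts.

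Histone chaperones deliver new histones behind replication forks (CHAF1A, CHAF1B) and hand over H3 and H4 (ASF1A), while DAXX deposits the variant H3.3. CHAF1A, the large subunit of chromatin assembly factor 1, was at 74.2 and 78.5 against 59.6 and 72.8 FPKM, and CHAF1B at 13.2 and 13.8 against 13.1 and 13.3 FPKM. ASF1A was at 31.0 and 39.3 against 42.3 and 39.6 FPKM. DAXX was at 76.1 and 81.4 against 84.2 and 85.01 FPKM. As deposited CHAF1A was below both controls and ASF1A and DAXX above, and the 4 differences ran from -0.21 to 0.22 (limma adjusted p from 0.489 to 0.931). DAXX turned to -0.01 with median-ratio scaling.

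A list of 91 partner genes of the same complexes outside the naming rule was compared in the same fit, and 67 were tested. None passed a limma adjusted p of 0.05. Without adjustment 6 had a limma p under 0.05 (8.96%, against 17.5% of all transcripts), with 4 higher and 2 lower. The list's median was 0.06, against 0.09 for all transcripts. Its knockdown values lay above both controls for 15 genes (22.4%) and below both for 10 (14.9%), against 35.1% and 15.6% of all transcripts. The lowest differences were those of TRIM28, the corepressor of KRAB zinc finger proteins, and TRRAP, the scaffold of TIP60. TRIM28 was at 169 and 129.7 FPKM in NC and 107 and 97.5 FPKM in KDM5_KD (-0.53, SE 0.158, limma adjusted p of 0.186). TRRAP was at 33.1 and 31.5 against 25.5 and 23.8 FPKM (-0.38, SE 0.130, limma adjusted p of 0.229). VPS72, which chaperones H2A.Z in the SRCAP and TIP60 complexes, was higher at 30.0 and 51.1 against 22.4 and 23.7 FPKM (0.74, SE 0.249, limma adjusted p of 0.218), and PHC2, a canonical Polycomb complex 1 subunit, at 13.1 and 13.8 against 10.4 and 7.05 FPKM (0.59, SE 0.215, limma adjusted p of 0.246). All 4 genes kept knockdown and control values apart as deposited.

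The 2 control libraries also differed on these genes. Of the 78 members 30 had the higher value in NC replicate 1, or 38.5%, while 55.8% of all transcripts did. The median gap between the NC replicates was 0.18 on the log2 scale and between the knockdown replicates 0.16, next to a median difference between groups of 0.15 in size. Over the 78 members Pearson's r of log2(FPKM + 1) was 0.977 for the pair of NC libraries, 0.987 for the knockdown pair and 0.972 to 0.987 for pairs from different groups. These correlations run across genes, which are not independent replicates.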

How the data were processed

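Per the labels' protocols, mRNA was captured with oligo(dT) beads and made into libraries by fragmentation, reverse transcription and PCR. The authors deposited FPKM for 14517 RefSeq accessions in 4 columns, 1 per library. The submitters' processing notes name Trimmomatic, HISAT2, featureCounts and Cufflinks without versions; the genome build is not given in the sources used here, so no positions are given. Read counts are unknown, so no counting intervals are given, and only relative depth could be read from the steps of low values (49.0% to 50.3% of ratios between libraries at small whole-number steps). Symbols came from the RefSeq gene table of ARS-UCD2.0 and matched 14295 accessions.

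Groups were compared on log2(FPKM + 1) with limma 3.58.1 (lmFit, eBayes with trend, two-sided) in R 4.3.3, over the 8970 transcripts with a mean of at least 1 FPKM, with Benjamini-Hochberg adjustment over all of them. A fold change on this scale understates differences of low genes. An exact permutation test of 2 against 2 libraries cannot go below p = 0.333 and was not used. The fit was tested on simulated data with known changes. Python 3.11.15, pandas 2.3.3 and matplotlib 3.10.9 made tables and plots.

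The members, roles and lists were chosen with earlier results of these data known. The naming rule took, in each of 10 roles, the most abundant member, the 2 largest increases and the largest decrease, roles of under 5 tested genes whole, and the 2 largest differences of the partner list in each direction; other genes were named for their place in a complex or after their values were seen. Alternatives were a pseudocount of 0.1, no filter (except transcripts at 0 in every library) or a filter at 5 FPKM, median-ratio scaling, quantile normalization, rows summed by symbol, robust eBayes, the replicate block and leaving out each library. Recounting non-overlapping members under each of them was added after seeing the data.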

Additional observations from a re-analysis of the deposited data

How the results depend on the processing

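No member passed a limma adjusted p of 0.05 in any of the 12 alternatives. Over all transcripts, 17 higher and 8 lower calls became 2 and 1 without the filter, 11 higher with a filter at 5 FPKM and 37 higher with robust eBayes. The labels share only a replicate number (r of deviations 0.229 for same-numbered libraries), and with that number as a block 8 transcripts were called higher and 4 lower. Leaving out 1 library gave 3 to 323 higher and 3 to 17 lower calls, and 0 to 1 partner gene, UHRF1 without NC replicate 1. These fits have 1 residual degree of freedom, and the lone library is assumed to vary like the other group.

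Members above both controls, 20, became 11 with median-ratio scaling and 10 after quantile normalization. With the filter at 5 FPKM they became 13, or 19.4% of the members left, against 29.4% of all transcripts. Those below, 17, became 27 with median-ratio scaling. Without 1 library fewer values have to lie apart, so both counts can only rise. They were 26 to 38 above and 23 to 39 below. These are 33.3% to 48.7% and 29.5% to 50% of the members, against 44.96% to 50.02% and 25.4% to 28.9% of all transcripts. The members' median was -0.090 with median-ratio scaling, -0.067 after quantile normalization and -0.040 to 0.049 without 1 library. The cause of the changes under the scalings and in the median was not tested.

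Signs turned for 15 of 38 named genes. With median-ratio scaling RBBP4 was at -0.11, CBX5 at -0.065, SMARCA5 at -0.077, SMARCAL1 at -0.067, ING1 at -0.058, RNF2 at -0.045 and DAXX at -0.0075. After quantile normalization RBBP4 was at -0.0054, ING3 at -0.043, INO80C at -0.13, SMARCAL1 at -0.15 and BRD2 at 0.0041. Without 1 library the ranges were -0.10 to 0.10 for RBBP4, -0.095 to 0.19 for CBX5, -0.17 to 0.50 for ING3, -0.49 to 0.71 for INO80C, -0.089 to 0.16 for SMARCAL1, -0.063 to 0.17 for ING1, -1.08 to 0.56 for PHF6, -0.0016 to 0.13 for RNF2, -0.25 to 0.016 for ARID5A, -0.23 to 0.094 for SMARCD2, -0.28 to 0.025 for BRD9, -0.19 to 0.17 for BRD2 and -0.18 to 0.62 for BRD3. Their lowest limma adjusted p over the alternatives was 0.0853.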

Other observations

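The members whose control libraries lay furthest apart were PHF6 and INO80C, the only 2 of the 78 with a gap of at least 2-fold on the log2(FPKM + 1) scale between NC replicates. No member had such a gap between knockdown replicates. Both were higher in NC replicate 2, the deepest library. PHF6 was at 1.97 FPKM in NC replicate 1 and 8.28 FPKM in NC replicate 2, and INO80C at 2.38 and 6.77 FPKM.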
